A study of Rattus norvegicus with 2 samples.

Results

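Collagen genes were examined in 2 clonal colonies, No.8 and No.4, of the rat glioma line C6. Members were all genes whose symbol reads Col, a type number, the letter a and a chain number, among array features that carried exactly 1 gene symbol. This gave 36 collagen genes of 18171 genes measured. The genes Col4a6, Col6a1, Col6a4, Col6a5, Col9a3, Col21a1, Col22a1, Col25a1 and Col28a1 were not analysed here. Of the 36 there were 11 fibrillar, 7 basement membrane, 7 FACIT, 3 beaded filament, 3 short-chain network, 3 transmembrane and 2 other genes, and all 36 identifiers matched RefSeq's gene list for GRCr8. Each colony was measured on 1 whole-transcript array. Without replicates every value is a single measurement, and neither tests nor errors are given. Both colonies were titled undifferentiated, were grown in medium with 10% fetal bovine serum, and carried the same treatment text, CHIR99021 at 20 µM plus forskolin at 100 µM for 35 days. CHIR99021 inhibits the kinase GSK3, and forskolin raises cyclic AMP. Whether the RNA was taken before or after that treatment is not stated in the labels, and nothing but the colony number distinguishes the samples. Each colony is 1 clone of the line, so a difference between the clones and a difference between cultures or hybridizations cannot be told apart.

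Collagens are proteins of 3 chains wound into a triple helix, and most are secreted, while the transmembrane types are anchored in the cell membrane. Fibrillar types form the cable-like fibrils of connective tissue, type IV forms the sheet of basement membranes, and FACIT types (fibril-associated collagens with interrupted triple helices) sit on the surface of fibrils. Normal brain tissue holds little fibrillar collagen outside its vessels and meninges, and gliomas can deposit it. Array levels are log2 units, in which a difference of 1 is 2-fold, and the difference is always No.8 minus No.4. The floor was set at 4.33, the median of the deposited values, and a gene counted as past it when either colony reached it. A stricter guide was 5.67, the 99th percentile of 1184 olfactory receptor genes, whose products work in the nose. This guide was defined after its values had been seen. Levels below 5.67 may lie near background, since no detection call was used here.

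Most collagen genes were higher in colony No.8, with the fibril gene Col1a1 and the fibril-associated gene Col12a1 far ahead of the others. Of the 36 genes, 26 were higher in No.8 by any amount, 8 were lower and 2 had the same deposited value in both colonies. By the same count, 52.2% of all genes measured were higher in No.8. With levels under 5.67 raised to it, 13 collagen genes were higher in No.8, 3 lower, and the others equal. The median difference over the 36 collagen genes was 0.32, against 0.03 over all genes measured. That median was 0 with levels raised to 5.67 and 0.11 with 64 added on the linear scale. Past the floor were 28 of the 36 genes, and 4 of these were at least 2-fold higher in No.8: Col12a1, Col1a1, Col8a1 and Col5a2. The background for that count was 2.91% of the 11070 genes past the floor. At least 2-fold lower in No.8 were 2 collagen genes, Col6a2 and Col18a1, where the background was 2.57%. All 6 of these genes were above 5.67 in both colonies. Among genes reaching 5.67, with lower levels raised to it, the same backgrounds were 2.25% higher and 2.4% lower. At 1.5-fold, 10 collagen genes were higher and 3 lower in No.8, beside 9.87% and 7.93% of the genes past the floor. With 1 array per colony, these counts describe the 2 arrays only.

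**Figure D1:**
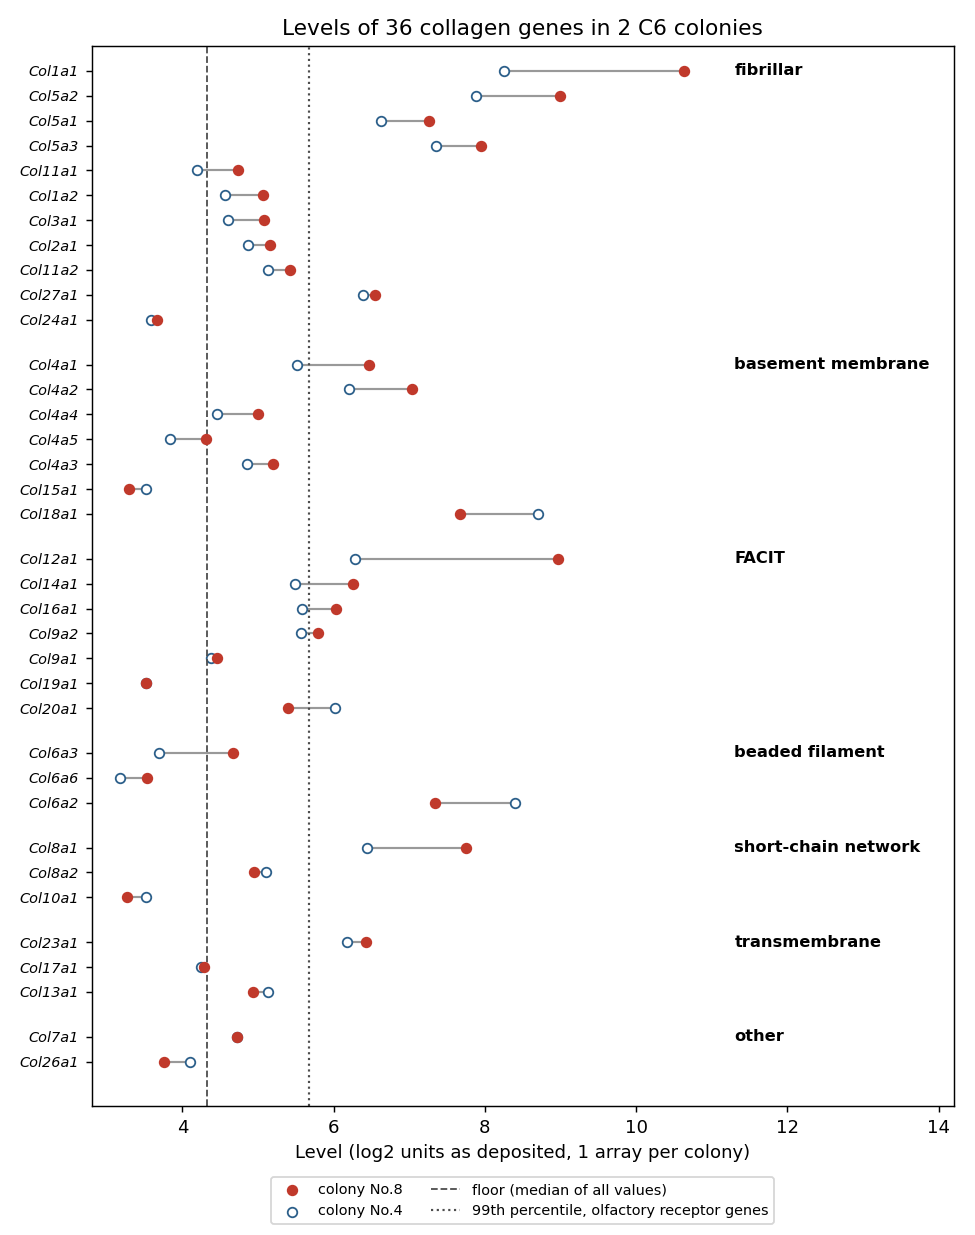
Levels of the 36 collagen genes (log2 units, horizontal axis) by class, with a filled point for colony No.8 and an open point for colony No.4, 1 array each; the dashed line is the floor of 4.33 and the dotted line the olfactory receptor guide of 5.67. All 11 fibrillar genes have the No.8 point to the right, and the longest bars are those of Col12a1 and Col1a1; Col19a1 and Col7a1 show 1 point because both levels were the same.

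Sequences are shown for the brighter type IV pair, Col4a2 and Col4a1, and for genes at least 2-fold apart. They are limited to promoters in the RefSeq table of GRCr8, which held 30 of the 36 genes. For each gene only the first start listed was used, and other starts were not searched. Col1a1, Col12a1 and Col6a2, all at least 2-fold apart, were not among the 30, nor were Col2a1, Col3a1 and Col14a1. The motif shares below therefore leave out the genes with the largest differences. Type IV genes lie in pairs that start back to back on opposite strands. The starts of Col4a2 and Col4a1 were 76 bases apart, those of Col4a4 and Col4a3 were 412 bases apart, and those of Col4a6 and Col4a5 were 1414 bases apart. The stretch between the starts of Col4a2 and Col4a1 is printed first (chr16:84885521-84885596, plus strand, read towards Col4a1). The 250 bases before the start follow for Col5a2 (chr9:55090152-55090401, minus strand), Col8a1 (chr11:56246532-56246781, plus strand) and Col18a1 (chr20:11473395-11473644, plus strand). Capitals mark GC boxes, GGGCGG on either strand (CCGCCC as printed where it lies on the other strand), which can be bound by factors of the Sp family.
Col4a2-Col4a1: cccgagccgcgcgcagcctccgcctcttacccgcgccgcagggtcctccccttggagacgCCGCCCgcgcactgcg
Col5a2: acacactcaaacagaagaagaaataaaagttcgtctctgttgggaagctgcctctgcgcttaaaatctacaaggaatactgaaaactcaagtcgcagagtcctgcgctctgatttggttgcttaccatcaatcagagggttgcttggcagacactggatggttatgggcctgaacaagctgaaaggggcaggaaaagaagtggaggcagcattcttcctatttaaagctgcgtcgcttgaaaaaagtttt
Col8a1: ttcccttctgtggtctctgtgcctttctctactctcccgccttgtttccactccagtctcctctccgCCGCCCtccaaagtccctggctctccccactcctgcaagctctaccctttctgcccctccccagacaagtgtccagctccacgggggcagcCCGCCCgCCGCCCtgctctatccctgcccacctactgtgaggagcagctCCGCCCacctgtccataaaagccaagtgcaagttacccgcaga
Col18a1: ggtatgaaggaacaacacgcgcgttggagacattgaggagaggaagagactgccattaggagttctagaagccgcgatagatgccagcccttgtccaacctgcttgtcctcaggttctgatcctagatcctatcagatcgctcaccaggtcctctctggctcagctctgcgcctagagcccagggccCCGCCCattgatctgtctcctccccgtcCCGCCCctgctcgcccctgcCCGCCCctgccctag

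The GC box occurred 4 times before Col8a1, which was higher in No.8, 3 times before Col18a1, which was lower in No.8, and 0 times before Col5a2. Among the 30 collagen promoters, 18 (60.0%) held a GC box in the 250 bases before the start, against 32.4% of 27457 promoters in the table. The 27457 promoters, 1 per gene, were not limited to genes measured here, so the shares compare unlike sets. A CCAAT box (CCAAT, either strand) was found in 8 of the 30 (26.7%), against 34.3% of all promoters, and a TATA box (TATAAA, either strand) in 4 of the 30, or 13.3%, against 13.1%. Because the labels name forskolin and CHIR99021, the cyclic AMP response element and the TCF/LEF core were searched too. The full cyclic AMP element TGACGTCA was in 1 of the 30 promoters, that of Col24a1, a gene below the floor in both colonies, against 1.7% of all promoters. Its shorter form TGACG, which the full element contains, was in 3 of the 30 (10.0%), against 19.0% of all promoters. The string CTTTGNT (N is any base), used here for the TCF/LEF core, was in 1 of the 30, that of Col9a1, against 16.2% of all promoters. Forms of the core that end in another base were not searched, so this count is not one of all TCF/LEF sites. These matches describe the letters in this window only.

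Fibrillar collagens, the fibril-forming types, were measured for 11 genes, and all 11 were higher in colony No.8, with differences between 0.08 and 2.38 and a median of 0.50. Past the floor were 10 of them, and 2 reached 2-fold. Col1a1, the alpha1 chain of collagen I, was at 10.64 in No.8 against 8.25 in No.4, a 5.22-fold difference that ranked 35 from the top of 11070 genes past the floor. Col5a2, a chain of collagen V, which is built into collagen I fibrils and sets their width, was at 9.0 in No.8 against 7.88 in No.4 (2.16-fold). The other collagen V chains went the same way by less. Col5a1 was at 7.26 in No.8 against 6.63 in No.4 (1.55-fold), and Col5a3 at 7.95 in No.8 against 7.36 in No.4, a difference of 0.59. Col5a1 was the only collagen gene with 2 features, and its dimmer feature was at 5.56 in No.8 against 5.43 in No.4, a difference of 0.13. Col27a1, a long-chain relative found in cartilage, was at 6.55 in No.8 against 6.39 in No.4.

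The remaining fibrillar chains were dim in both colonies, including the usual partners of Col1a1. Col1a2, the alpha2 chain that joins alpha1 in ordinary collagen I, was at 5.06 in No.8 against 4.57 in No.4. Col3a1, the single chain of collagen III in soft connective tissue, was at 5.08 in No.8 against 4.61 in No.4. The cartilage genes followed the same pattern. Col2a1 was at 5.16 in No.8 against 4.87 in No.4, Col11a2 at 5.42 in No.8 against 5.13 in No.4, and Col11a1 at 4.74 in No.8 against 4.20 in No.4. All of these levels were under 5.67, so their differences of 0.29 to 0.54 may arise near background. Col24a1 was below the floor in both colonies, at 3.67 in No.8 against 3.58 in No.4. The 5 fibrillar genes past 5.67 were therefore Col1a1, the 3 collagen V chains and Col27a1.

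The basement membrane class was mixed, with type IV chains higher and Col18a1 lower in colony No.8. Its 7 measured genes ran between -1.02 and 0.95 with a median of 0.47, and 5 were past the floor. Col4a1 and Col4a2, whose products join as the ubiquitous collagen IV trimer, come from 1 pair of genes. Col4a1 was at 6.46 in No.8 against 5.51 in No.4 (1.93-fold), and Col4a2 at 7.03 in No.8 against 6.20 in No.4 (1.78-fold), so both stayed just under 2-fold. Col4a4 was at 5.0 in No.8 against 4.46 in No.4, and its neighbour Col4a3 at 5.20 in No.8 against 4.86 in No.4. These are chains of specialised membranes such as that of the kidney glomerulus, and all 4 levels were under 5.67. Col4a5 was below the floor in both colonies, at 4.31 in No.8 against 3.84 in No.4.

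Col18a1 and Col15a1 encode collagens XVIII and XV, basement membrane proteins that carry sugar side chains and release anti-angiogenic fragments (endostatin in the case of Col18a1). Col18a1 was at 7.67 in No.8 against 8.70 in No.4, which is 2.03-fold lower in No.8, just past the 2-fold mark. Col15a1 was below the floor, at 3.29 in No.8 against 3.52 in No.4. Of 13 measured genes for laminins, nidogens, agrin and related proteins, 7 were past the floor, 5 of them higher and 2 lower in No.8, with a median over all 13 of 0.20. Only Agrn, which encodes the proteoglycan agrin, reached 2-fold (7.83 in No.8 against 6.72 in No.4, or 2.16-fold). The laminin gene Lama5 had the lowest difference of the 7, at 7.17 in No.8 against 7.60 in No.4.

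FACIT collagens, which coat fibrils, held the largest difference of the family. Col12a1, the chain of collagen XII found along collagen I fibrils in tendon and fascia, was at 8.96 in No.8 against 6.29 in No.4. This 6.38-fold difference ranked 18 from the top of the 11070 genes past the floor. Col14a1, the related collagen XIV gene, was at 6.26 in No.8 against 5.49 in No.4 (1.70-fold). Col16a1 was at 6.04 in No.8 against 5.58 in No.4. The collagen IX genes differed little. Col9a2 was at 5.79 in No.8 against 5.56 in No.4, and Col9a1 at 4.45 in No.8 against 4.38 in No.4. Col20a1 went the other way, at 5.40 in No.8 against 6.02 in No.4 (1.54-fold lower in No.8, and 1.27-fold counted from 5.67). Col19a1 had 3.52 in both colonies, below the floor. The median difference over the 7 FACIT genes was 0.23.

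**Figure D2:**
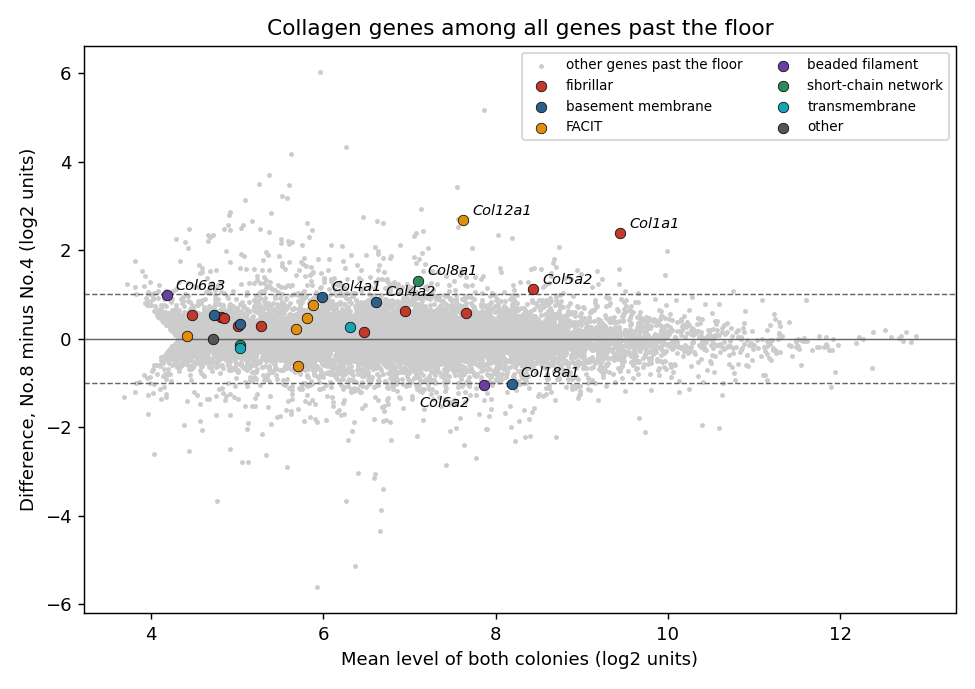
Difference between the colonies (No.8 minus No.4, log2 units) against the mean level of both colonies for the 11070 genes past the floor (grey) and the 28 collagen genes among them (coloured by class); dashed lines mark 2-fold and names are given for collagen genes with a difference of 0.80 or more either way. Col12a1 and Col1a1 stand at 2.67 and 2.38, while Col6a2 and Col18a1 lie just below the lower line at -1.05 and -1.02.

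Collagen VI, which forms beaded filaments around cells, differed in opposite directions between its chains. Col6a2 was at 7.35 in No.8 against 8.40 in No.4, or 2.07-fold lower in No.8. Col6a3, a long chain of the usual trimer, was at 4.67 in No.8 against 3.69 in No.4. Its No.4 level was below the floor, so the difference of 0.98 is bounded at 1.27-fold or more when that level is set to the floor, and both levels were under 5.67. Col6a6 was below the floor in both colonies, at 3.54 in No.8 against 3.17 in No.4. Col6a1, the chain encoded next to Col6a2, was not analysed here.

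Among the network-forming short chains, Col8a1, a collagen VIII gene of vessel walls and the corneal endothelium, was at 7.76 in No.8 against 6.44 in No.4 (2.49-fold). Its partner Col8a2 was at 4.95 in No.8 against 5.10 in No.4, both under 5.67. Col10a1, a marker of hypertrophic cartilage, was below the floor, at 3.27 in No.8 against 3.52 in No.4. The transmembrane collagens showed no 2-fold difference. Col23a1 was at 6.43 in No.8 against 6.18 in No.4, Col13a1 at 4.93 in No.8 against 5.13 in No.4, and Col17a1, a chain of skin hemidesmosomes, was below the floor at 4.28 in No.8 against 4.25 in No.4. Col7a1, which forms the anchoring fibrils of skin, had 4.72 in both colonies. Col26a1 was below the floor, at 3.75 in No.8 against 4.11 in No.4.

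Pairs of collagen genes that are neighbours among the protein-coding genes of GRCr8, with both members measured, were set side by side. The pair Col4a2 and Col4a1 differed by 0.83 and 0.95, and Col4a4 and Col4a3 by 0.54 and 0.33. In the pair Col3a1 and Col5a2 the differences were 0.47 and 1.11, with Col3a1 dim and Col5a2 bright in both colonies. Col9a1 and Col19a1, near or below the floor, differed by 0.07 and 0. In none of these pairs did the members differ in opposite directions, which the pair with Col19a1 could not do. With 26 of the 36 collagen genes higher in No.8, pairs on the same side are expected anyway. Col4a4, Col4a3, Col3a1 and Col9a1 were also under 5.67 in both colonies. Shared control of neighbours was not tested.

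Genes that make, bind and break down collagen differed in both directions. From a list of 117 such genes, 104 were measured and 80 were past the floor, of which 46 were higher and 34 lower in No.8 (53.2% of all genes past the floor were higher). The median difference over the 104 was 0.09. At least 2-fold higher in No.8 were 8 of the 80 (10.0%, beside the background of 2.91%), and at least 2-fold lower were 4 (5.0%, beside 2.57%). The list was written with earlier results of these data known, and several of the 12 genes had already been seen to differ.

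**Figure D3:**
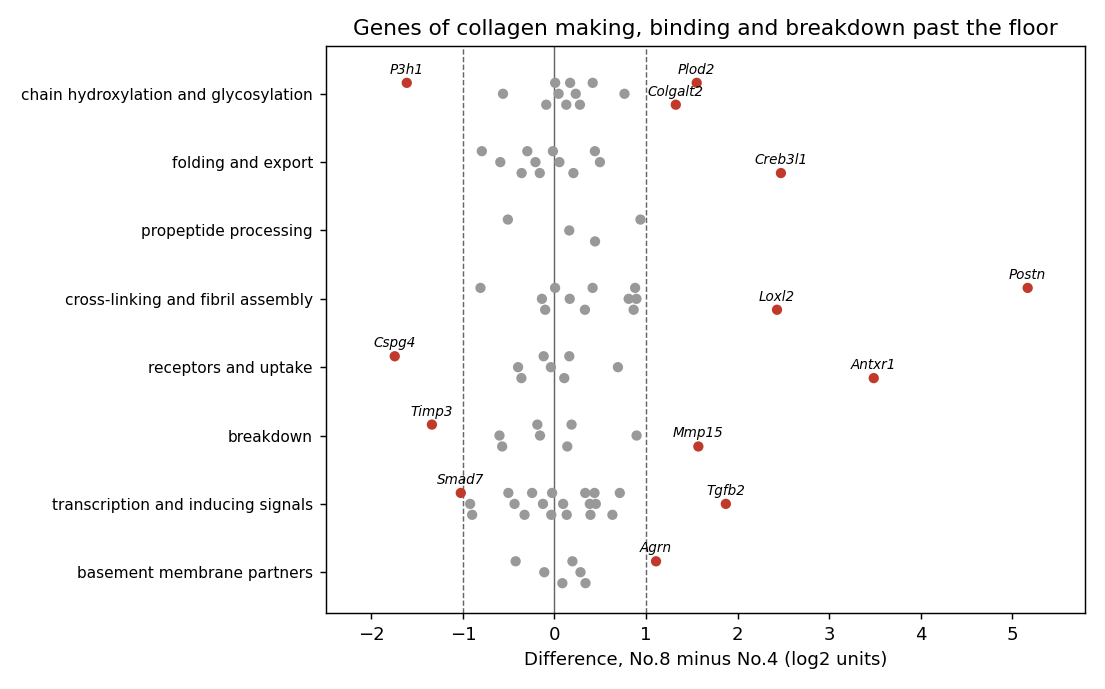
Differences (No.8 minus No.4, log2 units) of the 80 genes of collagen making, binding and breakdown past the floor, by role. The 7 basement membrane partners past the floor are included, with 1 point per gene. Dashed lines mark 2-fold, and genes beyond them are named and have red points. Postn, Antxr1, Creb3l1 and Loxl2 lie farthest to the right at 5.17, 3.49, 2.47 and 2.43, and Cspg4 and P3h1 farthest to the left at -1.74 and -1.61.

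Signals and factors that act on collagen genes were split, with 10 of 20 past the floor higher and 10 lower in No.8. Tgfb2, a transforming growth factor beta ligand that induces matrix genes, was at 7.72 in No.8 against 5.85 in No.4 (3.66-fold). Smad7, an inhibitor in the same pathway, was at 5.35 in No.8 against 6.37 in No.4 (2.03-fold lower in No.8, and 1.63-fold counted from 5.67). Creb3l1, listed under folding and export, encodes a membrane-bound factor of the endoplasmic reticulum that drives Col1a1 in mouse osteoblasts. It was at 6.50 in No.8 against 4.03 in No.4, which is at least 4.50-fold when No.4 is set to the floor and 1.77-fold when it is set to 5.67. The other 11 folding and export genes stayed under 2-fold, with the coat protein gene Sec24d, which helps carry procollagen out of the endoplasmic reticulum, at 8.20 in No.8 against 8.99 in No.4.

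Enzymes that modify collagen chains held differences in both directions. Plod2, the lysyl hydroxylase that prepares the chain ends for cross-linking, was at 9.72 in No.8 against 8.17 in No.4 (2.93-fold). Colgalt2, which adds galactose to hydroxylysine, was at 7.38 in No.8 against 6.06 in No.4 (2.51-fold). P3h1, the prolyl 3-hydroxylase that modifies collagen I, was at 7.53 in No.8 against 9.14 in No.4, or 3.06-fold lower in No.8. Of the 13 genes of this role past the floor, 10 were higher and 3 lower in No.8.

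Of 8 measured propeptide processing genes 4 were past the floor, 3 higher and 1 lower in No.8. The 2 that reached 5.67 were both higher in No.8. Over all 8, genes below the floor included, 4 were higher and 4 lower. Pcolce, which speeds removal of the procollagen end piece, was at 8.14 in No.8 against 7.20 in No.4 (1.92-fold), and Adamts2, which removes the other end piece, was at 4.17 in No.8 against 4.68 in No.4, under 5.67. In cross-linking and fibril assembly, 10 of 13 genes past the floor were higher and 3 lower in No.8. The cross-linking enzyme gene Loxl2 was at 8.38 in No.8 against 5.95 in No.4 (5.39-fold). Postn, which encodes periostin, a protein that binds collagen I and helps assemble fibrils, was at 10.45 in No.8 against 5.28 in No.4, at least 27.5-fold counted from 5.67.

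Among receptors, 4 of 9 past the floor were higher and 5 lower in No.8. Antxr1, a cell-surface protein that binds collagens, was at 7.00 in No.8 against 3.51 in No.4 (at least 6.38-fold with No.4 set to the floor, and 2.51-fold with No.4 set to 5.67). Cspg4, a proteoglycan that binds collagen VI, was at 4.62 in No.8 against 6.37 in No.4, which was 3.35-fold lower in No.8 and 1.62-fold counted from 5.67. Breakdown genes were divided as well, with 4 of 9 higher and 5 lower in No.8. Mmp15, a membrane-bound metalloprotease, was at 10.22 in No.8 against 8.64 in No.4 (2.97-fold), and Timp3, a metalloprotease inhibitor held in the matrix, at 8.29 in No.8 against 9.63 in No.4 (2.53-fold lower in No.8).

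The microRNA-29 family is known to bind collagen messages and lower their levels, and its hairpin genes were looked up after the values had been seen. The mature forms of the 3 family members share 1 seed, bases 2 to 8, shown in capitals (RefSeq, GRCr8).
rno-miR-29a-3p: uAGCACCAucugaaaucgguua
rno-miR-29b-3p: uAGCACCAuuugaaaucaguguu
rno-miR-29c-3p: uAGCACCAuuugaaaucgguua
Only the Mir29a feature was past the floor, at 5.06 in No.8 against 5.18 in No.4, under 5.67. Mir29b1 was at 2.18 in No.8 against 2.27 in No.4, Mir29b2 at 2.54 in No.8 against 2.44 in No.4, and Mir29c at 3.34 in No.8 against 3.94 in No.4. An array of this kind reads the hairpin or its precursor, not the mature microRNA, so the level of the mature form was not measured.

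Markers of other cell types were read beside the collagen values, because fibroblasts and pericytes are the usual makers of fibrillar collagen. Of 9 glioma and astrocyte markers 7 were past the floor, 4 higher and 3 lower in No.8. The filament genes Vim (12.60 in No.8 against 12.57 in No.4) and Nes (9.94 in No.8 against 9.54 in No.4) and the calcium-binding protein gene S100b (8.46 in No.8 against 8.24 in No.4) were bright in both. Lower in No.8 were the oligodendrocyte lineage factor gene Olig2 (4.22 in No.8 against 6.36 in No.4), the connexin gene Gja1 (6.86 in No.8 against 7.99 in No.4) and the progenitor factor gene Sox2 (8.44 in No.8 against 9.08 in No.4). Gfap, the astrocyte filament gene, was dim (5.17 in No.8 against 4.11 in No.4), and Aqp4 and Slc1a3 were below the floor in both colonies.

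Of 9 fibroblast and meningeal markers, 5 were past the floor and none of these reached 2-fold. Over all 9, 5 were higher and 4 lower in No.8 with a median difference of 0.28, and 2 of the 5 higher are the collagen genes Col1a2 and Col3a1. The summed linear level of the list ran the other way, at 3350 in No.8 against 3806 in No.4, and rests on its bright members S100a4 (11.27 in No.8 against 11.28 in No.4) and Pdgfra (9.53 in No.8 against 10.24 in No.4). Dcn, Lum, Fap and Dpt were below the floor in both colonies. Of 5 measured smooth muscle and pericyte markers 4 were past the floor, 3 higher and 1 lower in No.8. The summed linear level over all 5, with Des below the floor among them, was 290 in No.8 against 159 in No.4. Pdgfrb (7.55 in No.8 against 6.48 in No.4) was the only one above 5.67. Tagln was at 5.45 in No.8 against 3.92 in No.4, Myh11 at 4.34 in No.8 against 4.27 in No.4, and Rgs5 at 4.28 in No.8 against 4.48 in No.4. Endothelial markers were past the floor for 2 of 5 measured, Tek (5.97 in No.8 against 4.84 in No.4) and Flt1 (6.70 in No.8 against 7.44 in No.4). Cdh5, Vwf and Emcn were below it. The sum over all 5, genes below the floor included, was 211 in No.8 against 247 in No.4. Of 7 microglia and macrophage markers 1 was past the floor, Tmem119 (6.19 in No.8 against 6.48 in No.4). The sum over all 7, of which 6 were below the floor, was 130 in No.8 against 147 in No.4. The part of these markers in the collagen differences was not tested. Both samples are single colonies of 1 cell line, and the labels name no host tissue, so these markers are not counts of other cell types. Fewer cells that express a gene and less RNA per cell cannot be told apart in such bulk samples.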

How the data were processed

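Per the labels' protocols, total RNA was extracted with Trizol, and sense cDNA was fragmented, labelled with biotin and measured with 1 whole-transcript array per colony. The deposited table holds 36685 features, with values that the authors deposited on what was read as a log2 scale. Base 2 was inferred, since values reach 13.3. For background correction, normalization and software, the sources used here give nothing. The quartiles were 3.16, 4.31 and 6.37 in No.8 and 3.17, 4.34 and 6.37 in No.4, so no further scaling was applied. Depth has no meaning for arrays, and their number limits the precision.

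Features were named through the platform annotation: 18511 had 1 symbol, 575 had several and 17599 had none, and the last 2 kinds were left out. Where a gene had several features, the one with the highest mean level stood for it. Collagen classes follow the chain numbers. The members and lists were chosen with earlier results of these data known. Every collagen gene was named, and of the other lists each gene past the floor and at least 2-fold apart, and the 2 largest differences per role. Cell type markers were named as guides, and the microRNA genes after their values were seen. The steps were tested on simulated data with planted differences well beyond 2-fold and little noise, so that check does not bear on differences close to 2-fold. Python 3.11.15, numpy 2.4.6, pandas 2.3.3 and statsmodels 0.14.6 were used. The alternatives were centring, quantile normalization, loess, other floors, an offset of 64, other features per gene, and 1.5-fold and 4-fold.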

Additional observations from a re-analysis of the deposited data

How the results depend on the processing

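No paired analysis was possible because each colony has 1 array. The difference of a single gene was taken as changed when it moved by more than 0.39, the robust SD of the differences over genes past the floor, and a count or a median when it moved by more than 1.5 times or changed sign. Over 252 values of single collagen genes under 7 alternatives, 239 moved by less than this, 13 moved by more and 0 of the 2-fold differences changed sign. Many of these values could not move by that much. Other features per gene left 35 collagen genes unchanged, since they had 1 feature each, and centring shifted every gene by only 0.03. The count of 239 is therefore no measure of stability. The count of 4 collagen genes at least 2-fold higher in No.8 was 2 with an offset of 64, 10 at 1.5-fold and 2 at 4-fold, and 5 with quantile normalization, where Col6a3 reached 1.01. The count of 2 at least 2-fold lower in No.8 was 0 with the offset and 0 at 4-fold, and 3 at 1.5-fold. With levels raised to 5.67, 13 collagen genes were higher in No.8. The median over all collagen genes was then 0, as were those of the fibrillar, basement membrane, beaded filament, short-chain network, transmembrane and other classes, and the FACIT median was 0.12. With the offset the median over all collagen genes was 0.11, and the class medians were 0.15 (fibrillar), 0.11 (basement membrane), 0.10 (FACIT), 0.051 (beaded filament), -0.036 (short-chain network), 0.0069 (transmembrane) and -0.034 (other). The transmembrane median of 0.03 was also 0.00026 after centring, 0.061 with quantile normalization and -0.026 with the loess. Under the other 6 alternatives, 25 to 28 collagen genes were higher in No.8 (alternatives for this count were chosen after seeing the data). Col17a1, below the floor, changed sign under the loess.

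Counts of pathway genes at least 2-fold apart either way moved as follows. At 1.5-fold they were 3 for folding and export, 1 for propeptide processing, 7 for cross-linking and assembly, 4 for breakdown and 6 for transcription and signals. At 4-fold they were 0 for chain modification, breakdown, transcription and signals, and basement membrane partners, and 1 for receptors. With the offset they were 0 for folding and export and for basement membrane partners, and 1 each for receptors and for transcription and signals. Raised to 5.67, they were 0 for folding and export and 1 each for receptors and for transcription and signals, and with a floor at the upper quartile 1 for receptors.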

Other observations

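Some genes had exactly the same deposited value in both colonies, to the last digit. This held for 635 of 18171 genes measured (3.49%), among them the collagen genes Col7a1 (4.71813) and Col19a1 (3.52306). The share depended on level: it was 6.9% of 7101 genes below the floor, 1.31% of 11070 genes past the floor and 0.625% of 8162 genes past 5.67. For such genes the difference of 0 is a property of the deposited values, and its origin was not tested.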
